A study of Mus musculus with 4 samples.

Results

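The ATF4 integrated stress and amino acid response was followed through 10 genes, taken by symbol from a table of 24419 genes that could be used: *Atf4*, *Atf3*, *Ddit3*, *Trib3*, *Sesn2*, *Chac1*, *Slc7a11*, *Asns*, *Phgdh* and *Psat1*. All 10 were found. They were measured in mRNA from 4 cultures of the wild-type mouse embryonic stem cell (ESC) line R1, 1 library for each condition and no replicates. The study set epiblast-like cells (EpiLCs), at 72 h of induction, against ESCs. It also set ESCs that received 10 µM EED226, which binds EED and inhibits the histone methyltransferase complex PRC2, against ESCs that received its vehicle DMSO, both for 48 h.

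The cultures also differed in medium. ESC medium held 15% fetal bovine serum, 0.1 mM nonessential amino acids, 0.1 mM 2-mercaptoethanol and 1000 U/mL of LIF. By the methods, the ESCs were freed of feeder fibroblasts and then kept in this medium with 1 µM PD0325901, a MEK inhibitor, and 3 µM CHIR99021, a GSK3 inhibitor, although the label of the ESC library does not name the inhibitors. EpiLCs went from such cells through a day without LIF to a medium with 20% knockout serum replacement, 2 mM L-glutamine, 30 ng/mL FGF2 and 0.6 µM of a JAK inhibitor, with the same nonessential amino acids and 2-mercaptoethanol. The DMSO and EED226 cultures were kept in ESC medium with LIF. The ESC and DMSO libraries are therefore not replicates of each other, and in EpiLCs over ESCs the cell state and the medium cannot be told apart. Stress of the endoplasmic reticulum (ER) entered the study through free oligosaccharides, which are released when misfolded glycoproteins are recycled. By mass spectrometry the paper found far less of them in EpiLCs than in ESCs, and it read this as lower ER stress in EpiLCs. By real-time PCR it also reported higher *Uggt2* in EpiLCs. It proposed that more expression of enzymes for glycoprotein quality control and folding accounts for part of this lower ER stress. ATF4 targets are among the genes that such stress induces, but their mRNA levels are a different measure from free oligosaccharides.

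When amino acids run short, proteins misfold in the ER, heme is lacking or double-stranded RNA appears, dedicated kinases phosphorylate the translation factor eIF2. General translation falls, while translation of ATF4, a leucine zipper transcription factor, goes up through short upstream reading frames in its mRNA. ATF4 then turns on genes for amino acid synthesis and transport, redox balance and, when stress lasts, cell death. Since ATF4 is controlled chiefly at translation, the level of *Atf4* mRNA is not a measure of ATF4 activity, and no protein was measured here.

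ATF4 binds DNA as a partner of C/EBP proteins at a composite element with the core TGATGNAA. The 250 bases before each start of a member in the RefSeq promoter table of GRCm38.p6 were searched for this core on both strands. A gene can have several starts there. A window was found for all 10 members. The core was present in 4 of them, against 3.45% of 32851 promoters in the table and 3.91% of 27025 genes with a promoter there. The stretches that hold it are shown because they tie these members to the element, written 5′ to 3′ on the strand of the gene with the matched bases in capitals.
Atf3: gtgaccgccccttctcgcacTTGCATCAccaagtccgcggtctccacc
Chac1: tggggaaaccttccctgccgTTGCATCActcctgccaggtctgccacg
Slc7a11: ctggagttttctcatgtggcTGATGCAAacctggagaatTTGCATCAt
Asns: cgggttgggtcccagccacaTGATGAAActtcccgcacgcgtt

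The stretch of *Atf3* lies at chr1:191183416-191183463 on the minus strand, with its match beginning 110 bases before a RefSeq start. That start lies inside the annotated gene, which spans 191170296 to 191218039, and not at its outer end. The stretch of *Chac1* lies at chr2:119351029-119351076 on the plus strand, and the match begins at base -193. *Slc7a11* held the core in both orientations, beginning at bases -66 and -47, within chr3:50443652-50443699 on the minus strand. In *Asns* the match begins at base -23, within chr6:7693210-7693252 on the minus strand. The windows of *Atf4*, *Ddit3*, *Trib3*, *Sesn2*, *Phgdh* and *Psat1* held no match to these letters. The cAMP response element TGACGTCA was in 1.55% of promoters and in 0 members. The element of the antioxidant factor NRF2, TGACNNNGC, was in 10.2% of promoters and in 3 members, *Sesn2*, *Asns* and *Phgdh*. A match is a run of letters and not a measured binding site.

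**Figure D1:**
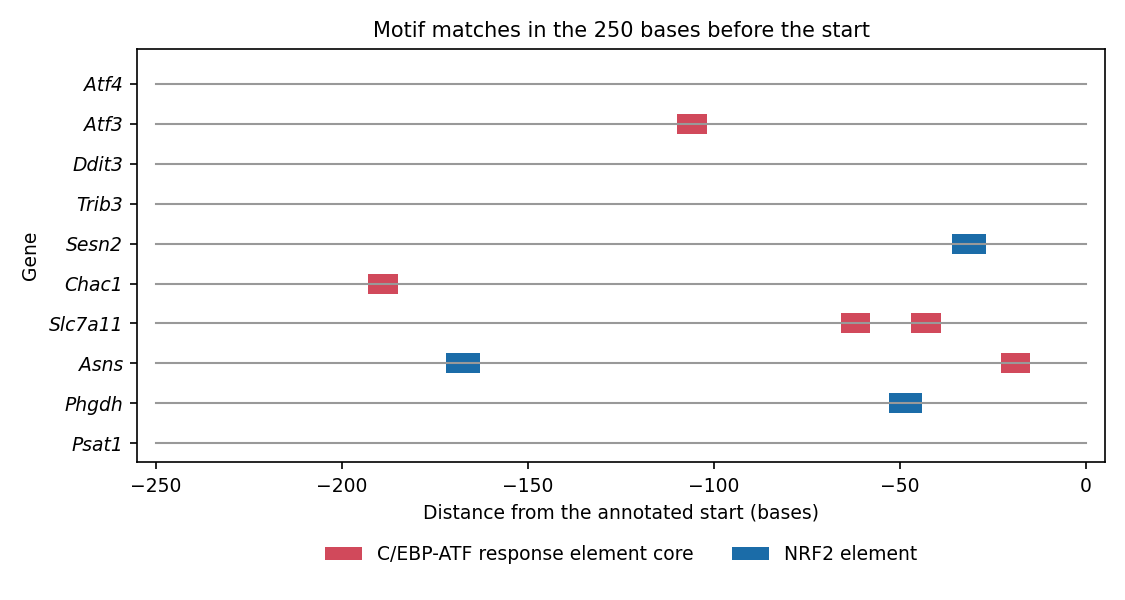
Motif matches in the 250 bases before the annotated starts of each member, with the distance from the start in bases on the horizontal axis. Each gene has 1 line, which carries the matches before any of its starts. Red marks the C/EBP-ATF core and blue the NRF2 element. The red marks lie on *Atf3*, *Chac1*, *Slc7a11* and *Asns*, with a pair on *Slc7a11*.

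The 4 libraries held 34440050 to 47622558 reads on genes, with the fewest in EpiLCs. Values are given as TPM, which corrects for gene length and library size, and a gene entered a comparison when it reached 1 TPM in either library. Of 10 markers of pluripotency and state, 2 were 2-fold higher in EpiLCs (*Fgf5* and *Dnmt3b*) and 6 lower (*Pou5f1*, *Sox2*, *Nanog*, *Zfp42*, *Esrrb* and *Klf4*). *Fgf5*, an epiblast gene, had 0.170 TPM for ESCs against 75.5 TPM for EpiLCs, and *Klf4*, a naive-state factor, was at 161 and 6.03 TPM. The other markers, *Otx2* and *Utf1*, did not reach 2-fold in either direction: *Otx2* was at 55.6 TPM in ESCs, 67.1 TPM in EpiLCs, 90.8 TPM with DMSO and 87.1 TPM with EED226, and *Utf1* at 603, 564, 751 and 655 TPM. *Pou5f1*, which both states express, was between 1109 and 2222 TPM in every library. In bulk RNA, fewer cells expressing a gene and less of its RNA per cell cannot be told apart.

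Most of the 10 members were higher in EpiLCs than in ESCs, but *Atf4* itself was not. Of the 9 members tested, 7 were at least 2-fold higher in EpiLCs (*Atf3*, *Ddit3*, *Trib3*, *Chac1*, *Sesn2*, *Phgdh* and *Psat1*) and 0 were 2-fold lower. Over all 13535 genes tested, 29.2% were 2-fold higher and 11.6% 2-fold lower. By counting interval alone, with no fold limit, 8 members were higher and 1 lower, against 56.6% and 31.7% of all genes. The median log2 ratio was 1.99 for the 9 members and 0.33 for all genes. With 1 library per condition there is no test between conditions, and the 95% intervals given below cover counting error only.

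**Figure D2:**
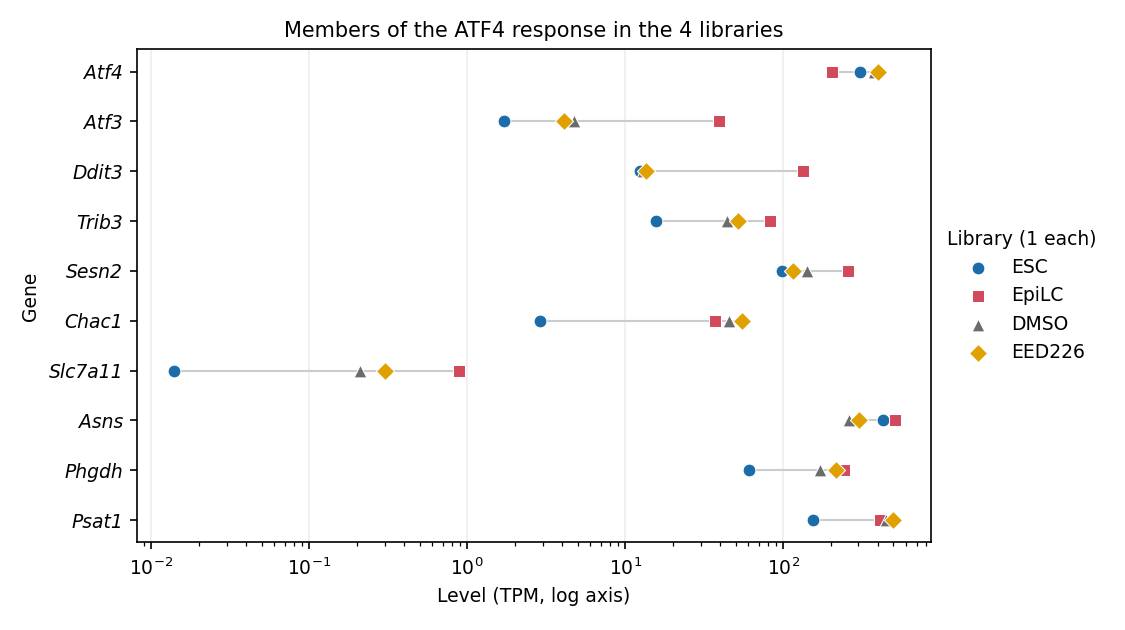
Level of each member in the 4 libraries, in TPM on a log axis; each point is 1 library and the grey line spans its lowest to highest level. *Atf3* and *Ddit3* stand apart in EpiLCs, while *Chac1*, *Phgdh* and *Psat1* stand apart in ESCs, where they are lowest.

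Among the transcription factors, *Atf4* was at 308 TPM in ESCs, 205 TPM in EpiLCs, 377 TPM with DMSO and 399 TPM with EED226. EpiLCs had the lowest level, with a ratio to ESCs of 0.667 (0.646 to 0.688). *Atf4* is on chromosome 15, 80255184 to 80257541, of GRCm38. It was among the more abundant mRNAs of each library, ranking from 368th to 750th by level. *Atf3* encodes a related leucine zipper factor that stress induces and that can repress its own targets. It was at 1.72 TPM in ESCs, 39.6 TPM in EpiLCs, 4.74 TPM with DMSO and 4.07 TPM with EED226. EpiLCs were far above the other libraries, 23.0-fold over ESCs (18.3 to 29.2), which placed *Atf3* at rank 197 of the 13535 ratios from the highest. Its reads in these libraries numbered 80, 1193, 165 and 165. *Atf3* is on chromosome 1, 191170296 to 191218039.

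*Ddit3* encodes CHOP, the factor linked with cell death under lasting ER stress. Its level was 12.4 TPM in ESCs, 135 TPM in EpiLCs, 13 TPM with DMSO and 13.6 TPM with EED226. The ESC, DMSO and EED226 libraries lay close together, and EpiLCs were 10.8-fold over ESCs (9.48 to 12.4). *Ddit3* is on chromosome 10, 127290774 to 127296288, and 4.73% of its exonic bases are also exonic in *Mars* or *Gm4189* on the other strand. *Mars*, the methionyl-tRNA synthetase gene, was at 206, 229, 244 and 245 TPM in the same order of libraries.

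*Trib3* and *Sesn2* act in feedback and signalling. *Trib3* encodes a pseudokinase that ATF4 and CHOP induce and that restrains ATF4 in turn. It was at 15.6 TPM in ESCs, 83.2 TPM in EpiLCs, 44.0 TPM with DMSO and 51.6 TPM with EED226. ESCs were lowest and EpiLCs highest, with a ratio of 5.32 (4.90 to 5.77). *Trib3* is on chromosome 2, 152337422 to 152344032. *Sesn2* encodes a leucine sensor that restrains the mTOR complex when leucine is low. Its levels in that order were 98.9, 257, 141 and 116 TPM, and EpiLCs were 2.6-fold over ESCs (2.52 to 2.68). Here too EpiLCs were highest, but the DMSO and EED226 libraries were nearer to ESCs. *Sesn2* is on chromosome 4, 132492032 to 132510501.

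*Chac1* and *Slc7a11* bear on glutathione. *Chac1* encodes an enzyme that breaks glutathione down. Its level was 2.90 TPM in ESCs, 37.0 TPM in EpiLCs, 45.6 TPM with DMSO and 55.1 TPM with EED226. The ESC library stood alone below the rest, and EpiLCs were 12.8-fold over it (10.4 to 15.8). *Chac1* is on chromosome 2, 119351229 to 119354381. *Slc7a11* encodes the transporter that brings cystine into the cell for glutathione synthesis. It stayed under 1 TPM in every library, at 0.0138 TPM in ESCs, 0.888 TPM in EpiLCs, 0.209 TPM with DMSO and 0.301 TPM with EED226, and so it was not counted among the members tested. These levels rest on 3, 125, 34 and 57 reads. EpiLCs were 64.2-fold over ESCs, with a counting interval as wide as 21.5 to 316.

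*Slc7a11* is on chromosome 3, 49892526 to 50443614. About 4.06% of its transcript is at least 95% identical to 9 other annotated genes, among them the alpha tubulin genes *Tuba1a*, *Tuba1b* and *Tuba1c*, which had between 139 and 828 TPM. The sources used here do not say how reads that fit several genes were counted, and the few *Slc7a11* reads are uncertain. Its partner chain in the membrane, *Slc3a2*, was at 199, 361, 248 and 261 TPM in ESCs, EpiLCs, DMSO and EED226. Both media named 0.1 mM 2-mercaptoethanol, a reducing agent that lets cells take up cysteine by other routes. Its part in the *Slc7a11* levels was not tested.

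The remaining members make amino acids. *Asns*, which encodes the enzyme that makes asparagine from aspartate, was the most abundant member in ESCs and EpiLCs. Its level was 431 TPM in ESCs, 508 TPM in EpiLCs, 263 TPM with DMSO and 303 TPM with EED226. EpiLCs and ESCs were both above the treated cultures, and their ratio was 1.18 (1.15 to 1.20), under the median ratio of all genes, while scaling by TMM or by median-of-ratios turned it below 1 (log2 ratio -0.11 and -0.13). *Asns* is on chromosome 6, 7675169 to 7693254.

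*Phgdh* encodes the first enzyme of serine synthesis from a glycolytic intermediate. It was at 61.2 TPM in ESCs, 243 TPM in EpiLCs, 171 TPM with DMSO and 217 TPM with EED226, with ESCs lowest and EpiLCs 3.97-fold over them (3.79 to 4.15). *Phgdh* is on chromosome 3, 98313170 to 98339990. Its value is uncertain because 89.5% of its transcript is at least 95% identical to 11 other annotated genes, 9 of them pseudogenes. *Psat1* encodes the next enzyme of the pathway and is on chromosome 19, 15904678 to 15947337. Its level was 156 TPM in ESCs, 410 TPM in EpiLCs, 446 TPM with DMSO and 494 TPM with EED226. ESCs were again alone at the low end, with EpiLCs 2.64-fold over them (2.57 to 2.70). No near-identical copy was found for the 8 members other than *Phgdh* and *Slc7a11*.

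**Figure D3:**
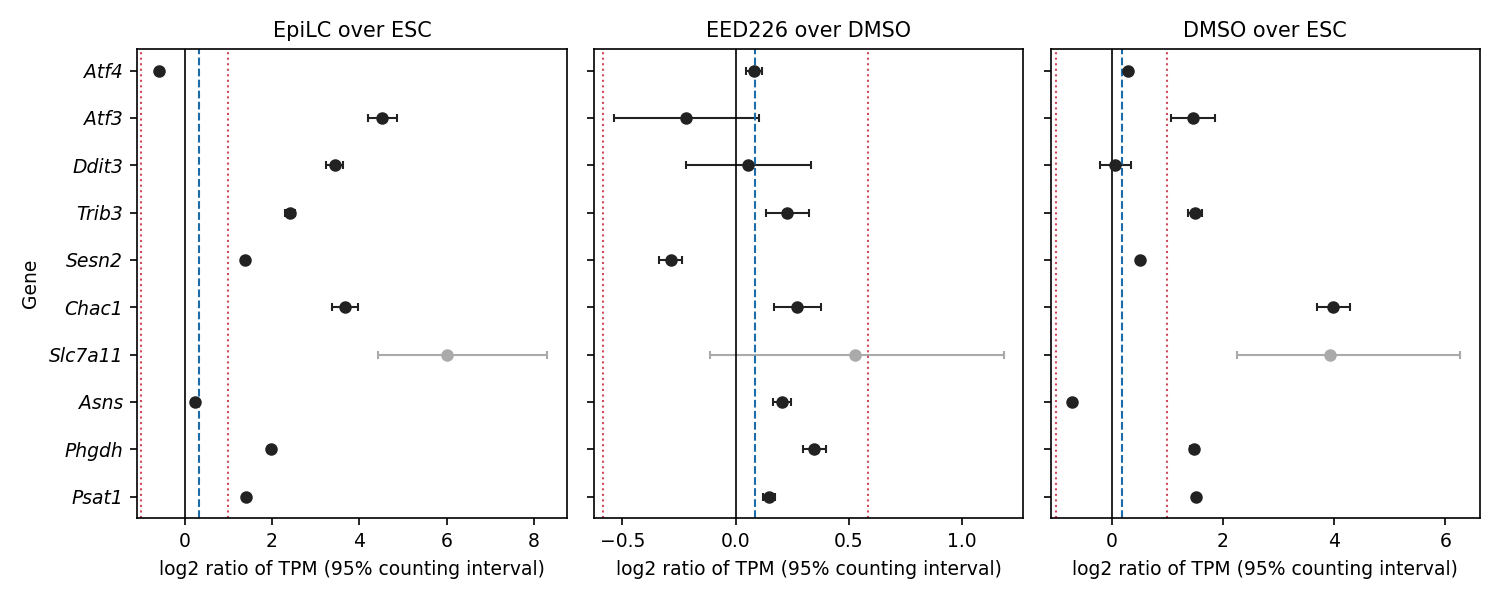
Log2 ratio of TPM for each member in the 3 comparisons, with 95% counting intervals; red dotted lines mark the fold that counts as higher or lower, the blue dashed line is the median of all genes tested, and *Slc7a11* is grey because it was under 1 TPM. The horizontal scales differ: members range from 0.667-fold to 64.2-fold in EpiLCs over ESCs, and from 0.819-fold to 1.44-fold in EED226 over DMSO.

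The EpiLC call did not depend on the scaling, although the scaling moved every ratio. TMM factors lowered all log2 ratios in EpiLCs over ESCs by 0.35 and median-of-ratios factors by 0.37, and 7 members stayed 2-fold higher under both. Under median-of-ratios factors, *Sesn2* and *Psat1* were just above the limit at log2 ratios of 1.01 and 1.03, and *Atf4* was just inside it at -0.95. Among all genes, 71.5% of calls were in the higher direction as deposited and 54.6% with median-of-ratios factors. Of all genes, 22.2% were 2-fold higher and 17.6% lower under TMM factors, and 21.8% and 18.2% under median-of-ratios factors. Longer genes had higher ratios, with a median log2 ratio of -0.14 in the shortest 10% of genes and 1.01 in the longest 10%. Removing that trend left 7 members higher, with log2 ratios from 1.14 for *Sesn2* to 4.32 for *Atf3*. Without the trend, 21.2% of all genes were higher and 15.5% lower.

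Genes that ATF4 is known to control beyond the members were mostly higher in EpiLCs as well. Of 22 other targets tested, 15 were 2-fold higher and 2 were 2-fold lower, beside 29.2% and 11.6% of all genes. Their median log2 ratio was 1.5. *Fgf21*, a stress-induced hormone, had 0 reads in ESCs, 85 in EpiLCs, 9 with DMSO and 11 with EED226, at least 43.7-fold higher in EpiLCs when a floor of 3 reads is set for the ESC library. Placing it at that bound left the median at 1.5. *Vldlr*, a lipoprotein receptor, was at 0.153, 5.32, 1.49 and 1.81 TPM in ESCs, EpiLCs, DMSO and EED226. *Gdf15*, a stress cytokine, was at 5.29, 35.8, 3.35 and 3.69 TPM, and *Cebpb*, a partner of ATF4 on DNA, at 1.20, 8.46, 3.59 and 3.95 TPM. *Stc2*, a secreted glycoprotein, was at 6.87, 33.2, 26.2 and 28.4 TPM.

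The other targets that were 2-fold lower in EpiLCs were *Cth* and *Bcat1*. *Shmt2* (310 and 175 TPM in ESCs and EpiLCs) and *Eif4ebp1* (873 and 718 TPM) were also lower beyond counting error. *Shmt2* was 2-fold lower under TMM or median-of-ratios factors, which left 12 targets higher and 3 lower. Of all genes, 22.2% were then higher and 17.6% lower under TMM factors, and 21.8% and 18.2% under median-of-ratios factors. *Cth*, which makes cysteine from cystathionine, was at 231 TPM in ESCs, 14.9 TPM in EpiLCs, 88.2 TPM with DMSO and 94.2 TPM with EED226. ESCs were highest and EpiLCs 15.5-fold lower. *Bcat1*, an aminotransferase for branched-chain amino acids, was at 151, 70.6, 87.6 and 93.6 TPM. The C/EBP-ATF core was found before 6 of the 19 other targets with a promoter in the table: *Fgf21*, *Nupr1*, *Pycr1*, *Jdp2*, *Pck2* and *Vldlr*.

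**Figure D4:**
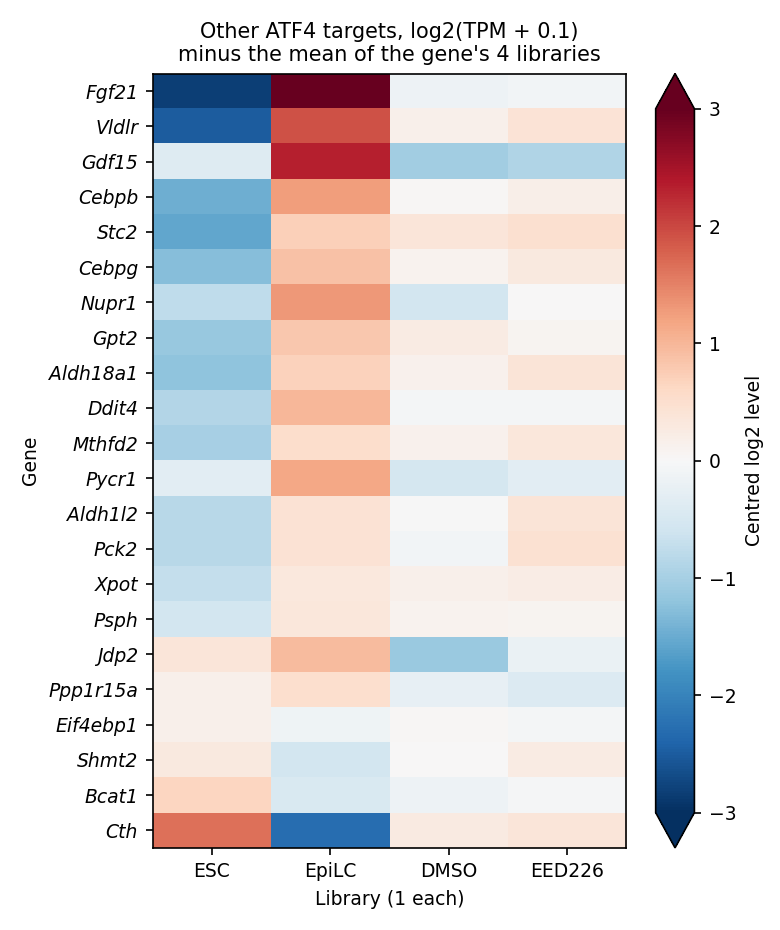
Level of 22 other ATF4 targets in the 4 libraries, as log2(TPM + 0.1) minus the mean of the gene's own 4 libraries, ordered by EpiLCs over ESCs; colours stop at -3 and 3. Most rows are lowest in ESCs and highest in EpiLCs, and *Cth* in the last row has the reverse order.

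Serine made by *Phgdh* and *Psat1* feeds glycine and one-carbon metabolism, and that list was split. Of 13 enzymes tested, 3 were 2-fold higher in EpiLCs and 2 lower, with a median log2 ratio of -0.34. The shares of all genes were 29.2% and 11.6%. Under TMM or median-of-ratios factors 2 were higher and 6 lower. Of all genes, 22.2% were then higher and 17.6% lower under TMM factors, and 21.8% and 18.2% under median-of-ratios factors. Those higher as deposited were *Mthfd2* at 80.6 and 232 TPM in ESCs and EpiLCs, *Mthfd2l* at 0.435 and 4.26 TPM, and *Aldh1l2* at 0.585 and 1.55 TPM, all folate enzymes of mitochondria. Those lower were the cytosolic folate enzymes *Aldh1l1*, at 10.3 and 3.99 TPM, and *Shmt1*, at 196 and 97.5 TPM. The mitochondrial enzymes did not move as a whole. *Shmt2* and the glycine cleavage genes *Amt* (150 and 76.1 TPM) and *Gcsh* (443 and 226 TPM), whose proteins are mitochondrial, were also lower beyond counting error. Of the remaining genes, *Mthfd1* (316 and 185 TPM) and *Tyms* (72.7 and 57.3 TPM) were lower beyond counting error, like the cytosolic enzymes above. *Psph* (39.7 and 73.7 TPM), *Mthfd1l* (58.9 and 107 TPM) and *Gldc* (151 and 230 TPM) were higher. *Mthfd2*, *Aldh1l2*, *Shmt2* and *Psph* stand in both this list and that of the other targets.

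Of 12 amino acid transporters, 4 were 2-fold higher in EpiLCs, a share near the 29.2% of all genes, and 0 were lower. The glycine transporter *Slc6a9* was at 0.987 TPM in ESCs, 24.7 TPM in EpiLCs, 6.04 TPM with DMSO and 7.92 TPM with EED226. The transporter of alanine, serine and cysteine *Slc1a4* was at 4.73, 54.0, 24.0 and 30.2 TPM, and the others were *Slc38a1* and *Slc43a1*. Cytosolic aminoacyl-tRNA synthetases, which load amino acids onto tRNA, differed little. Of 20, only *Sars* was 2-fold higher (108 and 236 TPM in ESCs and EpiLCs), 0 were lower, and the median log2 ratio was 0.19. Under TMM or median-of-ratios factors, *Sars* and *Slc43a1* were no longer 2-fold higher, which left 3 transporters and 0 synthetases higher, and 1 synthetase was lower. Of all genes, 22.2% and 21.8% were higher and 17.6% and 18.2% lower under these factors.

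The kinases that phosphorylate eIF2 did not share 1 direction. *Eif2ak1*, the heme-regulated kinase, was at 68.5 TPM in ESCs, 26.2 TPM in EpiLCs, 69.2 TPM with DMSO and 66.7 TPM with EED226, 2.61-fold lower in EpiLCs than in ESCs. *Eif2ak4*, which encodes the amino acid sensor GCN2, was at 12.2, 22.7, 15.3 and 17.4 TPM. *Eif2ak3*, which encodes the ER stress sensor PERK, was at 19.9, 15.7, 17.0 and 17.9 TPM, and *Eif2ak2*, the kinase that senses double-stranded RNA, between 11.1 and 12.7 TPM. Of the 14 kinase, phosphatase and eIF2B genes, 2 were higher in EpiLCs, *Impact* and *Gcn1l1*, and 3 lower, *Eif2ak1*, *Eif2b4* and *Eif2b5*. This split depended on the scaling: TMM factors gave 1 higher and 5 lower, and median-of-ratios factors 0 higher and 5 lower, with *Eif2b1* and *Eif2b2* joining the lower genes. Of all genes, 29.2% were higher and 11.6% lower as deposited. Those shares were 22.2% and 17.6% under TMM factors, and 21.8% and 18.2% under median-of-ratios factors.

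Chaperones and degradation factors of the ER, which the ATF6 and XBP1 branches of the ER stress response control, differed less than the members. Of 22, 3 were 2-fold higher in EpiLCs and 1 lower, with a median log2 ratio of 0.15 against 0.33 for all genes. Under TMM factors, under median-of-ratios factors or without the length trend, 1 was higher in each case and 2, 3 and 2 were lower, and the median turned negative (-0.20, -0.22 and -0.37). Of all genes, 22.2%, 21.8% and 21.2% were higher and 17.6%, 18.2% and 15.5% lower in these settings. By counting interval alone, 12 were higher and 10 lower, beside 56.6% and 31.7% of all genes. *Hspa5*, which encodes the chief ER chaperone BiP, was at 532 TPM in ESCs, 690 TPM in EpiLCs, 442 TPM with DMSO and 524 TPM with EED226. *Herpud1*, a factor of ER-associated degradation, was the highest by ratio (22.1 and 66.8 TPM in ESCs and EpiLCs), and *Dnajc3* and *Ern1* were the others. *Sdf2l1*, a chaperone cofactor, was 4.0-fold lower, at 64.5 and 16.1 TPM.

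Lists of other stress programmes held genes that were higher in EpiLCs, to an extent that depended on the scaling. Of 12 p53 targets, 11 were 2-fold higher and 1 lower, which fell to 6 higher and 1 lower under TMM or median-of-ratios factors. Of all genes, 22.2% and 21.8% were higher and 17.6% and 18.2% lower under these factors. The summed level of the p53 targets was 700.1 TPM in ESCs, 2108 TPM in EpiLCs, 672 TPM with DMSO and 709.8 TPM with EED226. *Sesn1*, the sestrin gene best known as a p53 target, was the one lower, at 28.4 and 10.0 TPM in ESCs and EpiLCs, in the direction opposite to *Sesn2*. Of 6 immediate early genes, which rise within minutes of growth factor or stress signals, 5 were higher and 0 lower, with *Jun* at 3.57 and 133 TPM, and those counts were the same under each scaling. Of 11 NRF2 targets, 5 were higher and 1 lower, beside 29.2% and 11.6% of all genes, and under TMM or median-of-ratios factors or without the length trend 3 were higher and 2 lower. Without the length trend, 21.2% of all genes were higher and 15.5% lower. *Sesn2* and *Atf3* can also be induced by p53, and *Slc7a11* by NRF2. The part of these programmes in the members' levels was not tested. Mitochondrial stress genes (1 of 7 higher, *Atf5*) and heat shock genes (2 of 6 higher, the near-identical *Hspa1a* and *Hspa1b*, and *Hspb1* lower) had median log2 ratios of -0.15 and 0.21.

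**Figure D5:**
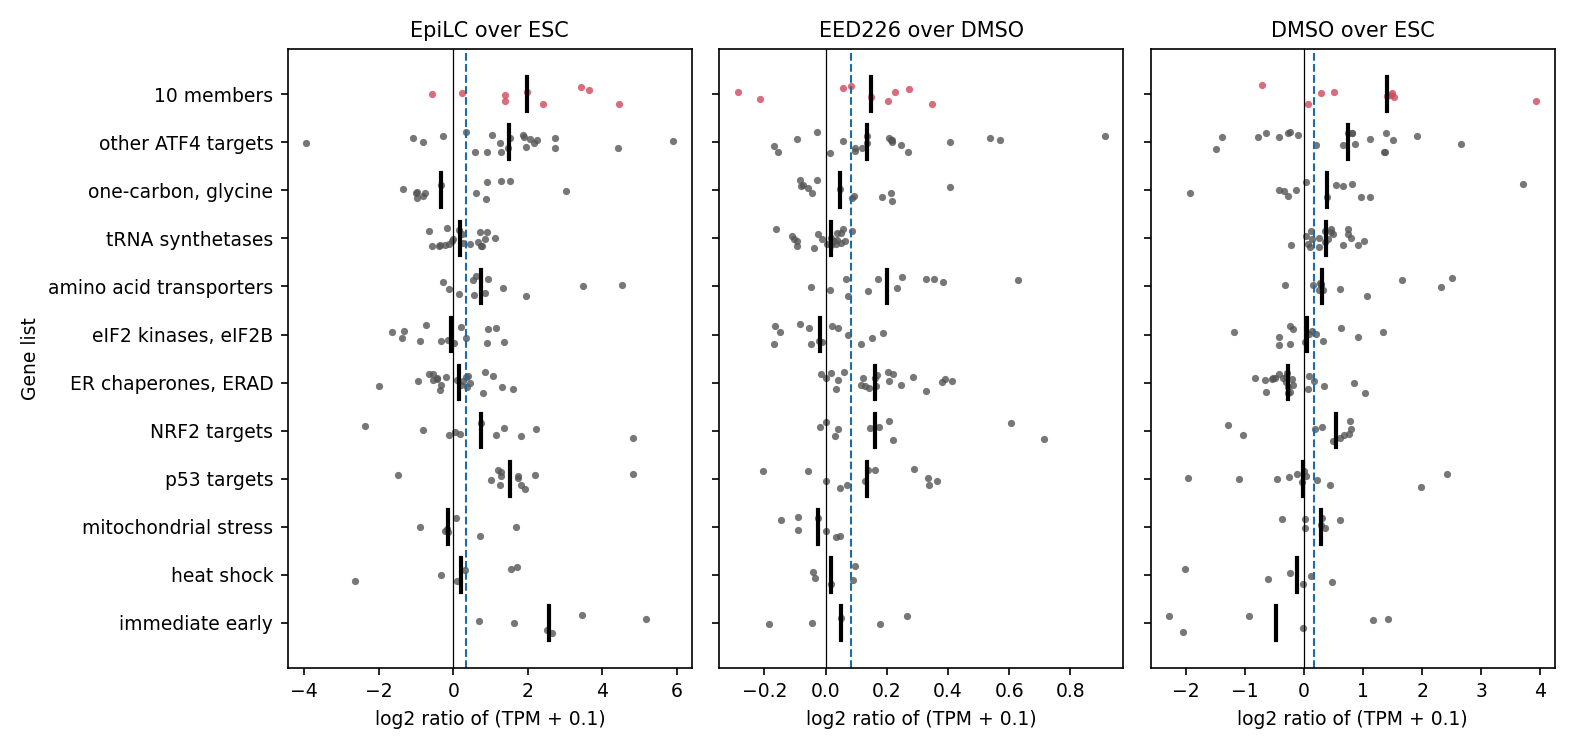
Log2 ratio of (TPM + 0.1) for each gene of the members (red) and of 11 related lists (grey) in the 3 comparisons; black bars are list medians and the blue dashed line is the median of all genes tested. In EpiLCs over ESCs the members, the other ATF4 targets, the p53 targets and the immediate early genes have medians from 1.5 to 2.58, and the ER chaperones 0.15, all as deposited, with lower medians under TMM or median-of-ratios factors.

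PRC2 inhibition was accompanied by small differences in the members. Of 9 tested, 0 were 1.5-fold higher and 0 were 1.5-fold lower with EED226 than with DMSO. Over all 12763 genes tested, 5.26% were 1.5-fold higher and 1.02% lower, and the median log2 ratio was 0.15 for the members and 0.08 for all genes. The share of calls in the higher direction was 83.8% as deposited and 69.2% with median-of-ratios factors. Beyond counting error, 6 members were higher and 1 was lower with EED226, beside 40.3% and 12.9% of all genes, and *Atf4*, counted as higher, was not so under TMM or median-of-ratios factors. A difference between single cultures of this size has no replicate check.

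*Phgdh* had the largest ratio among the members tested, 1.27 (1.23 to 1.32), its levels being 217 TPM with EED226 and 171 TPM with DMSO. *Chac1* followed at 1.21 (1.12 to 1.30), *Trib3* at 1.17 (1.10 to 1.25), *Asns* at 1.15 (1.12 to 1.18) and *Psat1* at 1.11 (1.09 to 1.13). *Sesn2* was the 1 member lower beyond counting error, with a ratio of 0.819 (0.791 to 0.848), and this put it at rank 475 of 12763 from the lowest. *Atf4* had a ratio of 1.06 (1.03 to 1.09), which was just below 1 under TMM or median-of-ratios factors. For *Atf3* (0.859, 0.688 to 1.07), *Ddit3* (1.04, 0.858 to 1.26) and *Slc7a11* (1.44, 0.926 to 2.27) no difference was detectable at this depth.

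Among the related genes, 1 of 21 other ATF4 targets was 1.5-fold higher with EED226 and 0 were lower, near the 5.26% and 1.02% of all genes. The target that was higher was *Jdp2*, which encodes a repressor of the same leucine zipper class. It was at 5.60 TPM with EED226 against 2.93 TPM for DMSO, a ratio of 1.91 (1.5 to 2.46). *Nupr1*, a small stress-induced chromatin protein, was just under the limit at 1.49 (1.25 to 1.77), with 19.6 and 29.1 TPM. Of the 12 transporters, *Slc7a1*, which carries arginine and lysine, was 1.55-fold higher, a call that was lost when centred, under TMM or median-of-ratios factors, or without the length trend. Of 10 NRF2 targets tested, *Srxn1* and *Me1* were 1.52-fold and 1.65-fold higher, and under the same alternatives *Me1* alone passed 1.5-fold. None of the 22 ER genes, 20 synthetases, 13 one-carbon enzymes, 14 eIF2 genes or 12 p53 targets passed 1.5-fold in either direction.

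The vehicle-treated ESCs differed from the ESC library in most members. Of 9 members tested, 5 were 2-fold higher with DMSO (*Atf3*, *Trib3*, *Chac1*, *Phgdh* and *Psat1*) and 0 were 2-fold lower. Over all 12945 genes, 15.6% were higher and 9.02% lower, and the median log2 ratio was 1.41 for the members and 0.18 for all genes. Of all calls, 63.4% were in the higher direction as deposited and 50.2% with median-of-ratios factors. The count of 5 was the same under each scaling. By counting interval alone, 7 members were higher and 1 lower, beside 52.5% and 30.7% of all genes. This comparison shares the ESC library with EpiLCs over ESCs and the DMSO library with EED226 over DMSO. In it the vehicle cannot be told apart from the medium, with the inhibitors that the methods name for the ESCs. Feeder removal, which the methods describe for the ESCs and not for the DMSO culture, cannot be told apart either.

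*Chac1* was 15.8-fold higher with DMSO than in ESCs (12.9 to 19.4), at rank 88 of 12945 from the highest. *Psat1* was 2.87-fold higher (2.80 to 2.94), *Trib3* 2.82-fold (2.58 to 3.07), *Phgdh* 2.79-fold (2.66 to 2.92) and *Atf3* 2.76-fold (2.10 to 3.65). *Slc7a11* had 3 reads in ESCs and 34 with DMSO, a ratio of 15.1 (4.76 to 77.1). *Sesn2* and *Atf4* had ratios of 1.43 (1.38 to 1.48) and 1.22 (1.19 to 1.25). *Ddit3* had a ratio of 1.05 (0.866 to 1.27), and its direction turned with the scaling. *Asns* was the only member lower with DMSO beyond counting error, with a ratio of 0.611 (0.596 to 0.627).

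Of the 21 other ATF4 targets tested, 7 were 2-fold higher with DMSO than in ESCs and 2 lower, beside 15.6% and 9.02% of all genes. Their median log2 ratio was 0.75. *Vldlr* was 9.71-fold, *Stc2* 3.81-fold and *Cebpb* 2.98-fold higher, and *Jdp2* and *Cth* were 2.85-fold and 2.61-fold lower. Of the transporters, 4 of 12 were higher, *Slc6a9*, *Slc1a4*, *Slc38a1* and *Slc43a1*. Of 13 one-carbon enzymes, 2 were higher, *Mthfd2* and *Mthfd2l*, and 1 was lower, *Aldh1l1*, both counts near the shares of all genes. Under TMM or median-of-ratios factors the calls of *Slc43a1* and *Mthfd2* were lost. For the ER genes the median was -0.27, and 1 of 22 was higher and 0 lower by 2-fold. By counting interval alone 6 of the ER genes were higher and 16 lower, beside 52.5% and 30.7% of all genes. Of 12 p53 targets, 2 were higher, near the share of all genes, and 2 lower.

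Markers of cell state and of fibroblasts moved along with this comparison. *Fgf5* was at 9.91 TPM and *Klf4* at 44.5 TPM with DMSO, between their levels in ESCs and EpiLCs. *Pou5f1*, *Nanog*, *Zfp42* and *Esrrb* also lay between. The other state markers, *Sox2* (397 TPM with DMSO), *Dnmt3b* (472 TPM), *Otx2* (90.8 TPM) and *Utf1* (751 TPM), were above both. The summed level of 12 fibroblast markers was 36.9 TPM in ESCs, 19.9 TPM in EpiLCs, 65.0 TPM with DMSO and 67.8 TPM with EED226. Of the 8 tested, 4 were 2-fold higher with DMSO than in ESCs and 0 lower. In EpiLCs over ESCs, 2 of 8 tested were 2-fold higher, *Dcn* (0.122 TPM in ESCs and 3.21 TPM in EpiLCs) and *Loxl1* (1.59 and 6.44 TPM). The 3 that were 2-fold lower were *Col1a1*, *Col1a2* and *Col3a1*. *Lum*, *Postn*, *Twist2* and *Fap* had 0 reads in EpiLCs, but only 1, 29, 1 and 3 in ESCs, and *Fap* had 0 with DMSO and EED226. The part of cell state or feeder cells in the members' levels was not tested.

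Set beside the DMSO culture in place of the ESCs, some members were higher in EpiLCs and others lower. No fold limit or other scaling was applied to these ratios. *Ddit3* was 10.3-fold higher in EpiLCs than with DMSO (8.91 to 12) and *Atf3* 8.34-fold (7.08 to 9.88). *Slc7a11* was 4.24-fold higher (2.88 to 6.39), again on few reads. *Asns* was 1.93-fold, *Trib3* 1.89-fold, *Sesn2* 1.81-fold and *Phgdh* 1.42-fold higher. Of these, *Asns* had not reached 2-fold in EpiLCs over ESCs, with a ratio of 1.18, and its DMSO level was below that of ESCs. *Psat1* and *Chac1* were lower in EpiLCs than with DMSO, at ratios of 0.919 (0.900 to 0.938) and 0.811 (0.743 to 0.884), and *Atf4* had the lowest ratio, 0.545 (0.528 to 0.563). The DMSO level lay between ESCs and EpiLCs for 6 members, above both for *Atf4*, *Chac1* and *Psat1*, and below both for *Asns*. Shares over all genes are not given for EpiLCs over DMSO or for these positions. Whether the members differ from other genes here cannot be read from these values.

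Over the 4 libraries, the mean profile of the members, on log2(TPM + 0.1) centred for each gene, was -1.14 in ESCs, 1.01 in EpiLCs, 0.01 with DMSO and 0.13 with EED226. Among 12836 genes, the profile nearest to it was that of *Decr1*, a mitochondrial enzyme of unsaturated fatty acid oxidation, at a Euclidean distance of 0.023. *Decr1* was at 4.77 TPM in ESCs, 21.3 TPM in EpiLCs, 10.6 TPM with DMSO and 11.8 TPM with EED226. *Klc2*, *4930526I15Rik*, *Vopp1* and *Zcwpw1* came next, at distances from 0.075 to 0.084. The genes nearest to *Atf4* were *Zfp583*, *Hars2* and *Serpinb6a*, at 0.022, 0.030 and 0.043. With 4 points per gene, such likeness is a description of these libraries.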

How the data were processed

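RNA was sequenced with a stranded mRNA kit as 100 bp single reads, in 4 libraries of 34440050 to 47622558 reads on genes. Tools in the submitters' processing notes were featureCounts 1.6.2, STAR 2.6.0a, Bowtie2 2.2.4 and bcl2fastq 2.20, and the build was mm10. The sources used here state neither the strand setting nor how reads that fit several genes were counted. The authors deposited 1 table that gives, for each gene, TPM, the count of reads, and a signal that divides this count by the gene's length. The deposited TPM was recomputed from the deposited counts and lengths with no difference. Of 24421 entries, 2 that share a symbol were left out.

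The members and gene lists were chosen with earlier results of these data known. Log2 ratios were taken after adding 0.1 TPM, for genes with at least 1 TPM in either library. Higher or lower meant 1.5-fold for EED226 over DMSO and 2-fold for the comparisons with ESCs. Each TPM ratio has an exact (Clopper-Pearson) 95% interval, computed from how its reads divide between both libraries. Like the floor of 3 reads, it covers counting error only. No count test was run and p-values are not given, since each condition has 1 library. The tests had been planned for TPM alone, and the finding of counts in the table did not change them. EpiLCs over DMSO was added after the values were seen.

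All members are named, with up to 6 genes of each list by largest change in EpiLCs over ESCs and up to 4 in the other comparisons, all eIF2 kinases, the markers and the genes of most like profile. Other names complete small counts or give a partner, an overlapping or a near-identical gene, and were chosen after their values were seen. Positions come from GENCODE annotation of GRCm38, which mm10 names, and promoters from RefSeq. Near copies were sought among GENCODE transcripts with BLAST, at 95% identity over 100 bases. Alternatives covered the pseudocount, filter, fold, centring on the median gene, TMM and median-of-ratios factors, the length trend and counting intervals in place of a fold. The scripts were tested on simulated data and ran under R 4.3.3 with edgeR 4.0.16 (TMM factors only) and Python 3.11.15 with scipy 1.17.1, pandas 2.3.3, numpy 2.4.6 and matplotlib 3.10.9.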

Additional observations from a re-analysis of the deposited data

How the results depend on the processing

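The count of members higher in EpiLCs (7) and with DMSO (5), each over ESCs, and the 0 members past 1.5-fold with EED226 over DMSO stayed within 1.5 times under the alternatives of pseudocount, filter, fold, scaling and length. Calling by the counting interval with no fold limit gave 1 member lower in EpiLCs (*Atf4*), 6 higher and 1 lower with EED226, and 1 lower with DMSO (*Asns*), where a 1.5-fold limit also gave 1. Signs turned for *Asns* in EpiLCs (log2 ratio -0.13 to 0.24), for *Atf4* and *Ddit3* with EED226, and for *Ddit3* with DMSO (-0.15 to 0.19).

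The ER genes higher in EpiLCs numbered 3, with 5 at 1.5-fold, 1 under TMM factors, 1 under median-of-ratios factors, 1 without the length trend and 12 by counting interval. Those lower numbered 1, with 3 at 1.5-fold, 2 when centred, 2 under TMM factors, 3 under median-of-ratios factors, 2 without the length trend and 10 by interval. Of all genes in EpiLCs over ESCs, 40.6% were higher and 19.2% lower at 1.5-fold, and 56.6% and 31.7% by interval. With EED226 the interval gave 14 of 22 ER genes higher, beside 40.3% of all genes. With DMSO over ESCs, 1 ER gene was higher, with 2 at 1.5-fold, 6 by interval, and 0 with 1 TPM added, when centred, under TMM or median-of-ratios factors or without the length trend; 0 were lower, with 3 at 1.5-fold, 1 under TMM factors, 1 under median-of-ratios factors and 16 by interval. Of all genes with DMSO over ESCs, 28.2% were higher and 15.1% lower at 1.5-fold, and 52.5% and 30.7% by interval. Other ATF4 targets higher with EED226 numbered 1, with 0 at 2-fold, 2 without the length trend and 13 by interval. The shares of all genes were 5.26%, 1.14% at 2-fold, 3.58% without the length trend and 40.3% by interval. With DMSO over ESCs the other targets that were higher numbered 7, with 12 at 1.5-fold and 12 by interval.

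Under TMM factors, the counts higher and lower in EpiLCs became 6 and 1 for the p53 targets (from 11 and 1), 3 and 2 for the NRF2 targets (from 5 and 1), 2 and 6 for the one-carbon enzymes (from 3 and 2), 1 and 5 for the eIF2 genes (from 2 and 3), and 0 and 1 for the synthetases (from 1 and 0). Median-of-ratios factors gave the same counts, except 0 higher for the eIF2 genes. Of all genes, 22.2% were higher and 17.6% lower under TMM factors, and 21.8% and 18.2% under median-of-ratios factors. The immediate early genes higher in EpiLCs numbered 5 under both.

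No paired analysis was possible because each condition has 1 library, and none could be left out. The ratio of *Slc7a11*, resting on 3 reads in ESCs, depended most on the pseudocount, with a log2 ratio in EpiLCs from 0.90 with 1 TPM added to 5.24 with 0.01 TPM added. Depth limits what can be said of *Atf3*, *Ddit3* and *Slc7a11* in EED226 over DMSO. No value here covers the spread between cultures.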

Other observations

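Genes whose promoter window held the C/EBP-ATF core were compared with all genes that had a promoter in the table. Of 234 such genes tested in EpiLCs over ESCs, 83 (35.5%) were 2-fold higher, against 28.5% of the 10086 genes with a promoter. With DMSO over ESCs the shares were 18.6% of 221 and 14.6% of 9660 genes, and with EED226 over DMSO, at 1.5-fold, 5.12% of 215 and 4.46% of 9555 genes. These are counts over genes of single libraries, with no test.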
